A study of Homo sapiens with 12 samples.

Results

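The genes of translation elongation factors 1 and 2 were described across 4 conditions of HepG2 cells, an established line from a human liver tumour. The 8 genes listed were EEF1A1, EEF1A2, EEF1B2, EEF1D, EEF1E1, EEF1G, EEF2 and EEF2K, and 7 of these 8 had a row, matched by symbol, among the 16389 genes of the count table. EEF1G was not analysed here. The family and the balance of EEF1A2 and EEF1A1 were selected from results of these same libraries, so the levels, differences and ratio of that pair are a description with no test. The other 5 genes were tested as part of the whole table.

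Elongation adds amino acids to the growing protein chain. eEF1A brings each aminoacyl-tRNA to the ribosome with GTP, the eEF1B complex (EEF1B2, EEF1D and EEF1G) then exchanges its GDP for GTP, and eEF2 moves the ribosome along the mRNA. EEF2K phosphorylates and thereby inhibits eEF2, and EEF1E1, a relative of the EEF1B subunits also called p18 or AIMP3, belongs to the complex of aminoacyl-tRNA synthetases. eEF1A exists as a pair of closely related isoforms from separate genes. EEF1A1 is expressed nearly everywhere, the adult liver included, whereas EEF1A2 is known mainly from neurons, heart and skeletal muscle, and is raised in some tumours.

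Cells of passage 9 were kept for 48 h in medium with 5.5 mM glucose (LG) or 20 mM glucose (HG). LGV and HGV cells were given 1 mM valproic acid (VPA), an antiepileptic drug that inhibits histone deacetylases, for another 12 h. Each of the 4 groups had 3 libraries of poly(A) RNA, numbered 1 to 3. All came from a single cell line without genetic change, and the labels do not say that the replicates were separate cultures, so p-values measure only the spread between these libraries. The labels also do not say when the untreated cells were harvested, so VPA and time in culture cannot be told apart.

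Total counts ran from 29798442 to 45572694 per library, and 3 counts stood for 0.0658 to 0.101 CPM. Levels are given as CPM (counts relative to library size, scaled with edgeR's TMM factors), in the order of replicates 1, 2 and 3, and as mean ± SD over n = 3 libraries. Levels of different genes are compared as CPM per kb of annotated exons. The 8 liver markers examined were all present, with albumin, AFP and apolipoproteins among them. Their summed CPM was 47372 to 52708 in LG, 46550 to 54919 in HG, 36499 to 37159 in LGV and 41320 to 54912 in HGV, so all LGV libraries lay below all LG libraries. HNF4A, a transcription factor of hepatocytes, fell with VPA in HGV against HG (log2 fold change -0.46, FDR 0.00141) and LGV against LG (-0.73, FDR 0.000299), by edgeR's quasi-likelihood test, and APOA1, APOB, FGB and SERPINA1 fell in LGV against LG (-0.49 to -0.68). FGB also fell and TTR rose in HGV against HG (-0.50, FDR 0.0353, and 0.51, FDR 0.00914). Between glucose media, FGB (0.88, FDR 0.000836) and APOA1 (0.48, FDR 0.00991) rose in HG against LG. In HGV against LGV, FGB (1.04, FDR 1.36e-05), APOA1 (0.94, FDR 0.000184) and TTR (0.49, FDR 0.0102) rose. No liver marker was called as lower in either glucose comparison. The part of this in the results was not tested. PTPRC, HBB and CD68, which mark blood cells, had no row among the genes analysed. Because these were bulk samples, fewer cells of a type and less RNA per cell cannot be told apart. The elongation factor genes lay at chr6:74199031-74235310 (EEF1A1, minus strand), chr20:62119366-62130592 (EEF1A2, minus), chr2:207024309-207027652 (EEF1B2, plus), chr6:8073593-8102792 (EEF1E1, minus), chr19:3976054-3985461 (EEF2, minus) and chr16:22217599-22300059 (EEF2K, plus) of GRCh37, the build of the counts.

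Whether the isoforms can be told apart by reads is the first question for their balance, so the start of both coding sequences is shown. These are the first 120 coding bases, from exon 2 of each main transcript (GRCh37, chr6:74229630-74229749 and chr20:62128997-62129116, both minus strand), with capitals at the 22 positions at which the genes differ:
EEF1A1: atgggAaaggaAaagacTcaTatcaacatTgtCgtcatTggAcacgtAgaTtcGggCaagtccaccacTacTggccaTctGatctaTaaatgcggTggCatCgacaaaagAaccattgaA
EEF1A2: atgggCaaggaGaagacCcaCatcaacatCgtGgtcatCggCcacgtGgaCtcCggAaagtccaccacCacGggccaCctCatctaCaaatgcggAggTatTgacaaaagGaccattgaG
Over the whole coding region the genes were identical at 1083 of 1389 aligned positions (77.97%), and the longest identical run was 20 bases, shorter than the 50-base reads. The main transcripts of EEF1A1 and EEF1A2 shared 0 of their 50-base windows. All 1724 windows of EEF1A2 had no exact match elsewhere in the genome, against 1825 of 3463 (52.7%) for EEF1A1, which has many processed pseudogenes. The corresponding share was 31.1% for EEF1B2, 93.7% for EEF1D, 98.2% for EEF1E1, 100% for EEF2 and 96.0% for EEF2K. The authors counted only alignments with a mapping quality of at least 10, and STAR gives reads placed at several sites a lower value. Reads from the other windows would then not be counted, which lowers the counts of EEF1A1 and EEF1B2 relative to other genes, so their levels beside other genes are uncertain.

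EEF1A2 was the least abundant of the 7 genes without VPA and was about 20 times higher with it, in either glucose medium. EEF1A2 stood at 1.94, 1.80 and 1.56 CPM in LG, from 52, 72 and 61 reads. In HG it was at 1.33, 2.72 and 1.29 CPM, from 42, 91 and 46 reads, so that HG replicate 2 lay above every other untreated library. With VPA it reached 39.4, 34.9 and 31.0 CPM in LGV and 33.4, 40.3 and 29.6 CPM in HGV. The lowest library with VPA therefore lay more than 10 times above the highest without it, and the LGV and HGV ranges overlapped. The means were 1.77 ± 0.195 CPM in LG, 1.78 ± 0.815 in HG, 35.1 ± 4.19 in LGV and 34.4 ± 5.44 in HGV (SD, n = 3 libraries each).

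The log2 fold change of EEF1A2 was 4.33 (SE 0.17) for LGV against LG, a 20.1-fold difference, and 4.27 (SE 0.25) for HGV against HG, a 19.3-fold difference. It ranked 171 of 15944 genes from the highest in the former and 253 of 16188 in the latter. Over all genes the median log2 fold change was -0.01 and 0.02. Between glucose media the difference was small next to its error, at 0.04 (SE 0.30) for HG against LG and -0.05 (SE 0.14) for HGV against LGV. The difference between the VPA responses in the 2 media, the interaction of glucose and VPA, was -0.05 (SE 0.31) for EEF1A2.

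**Figure D1:**
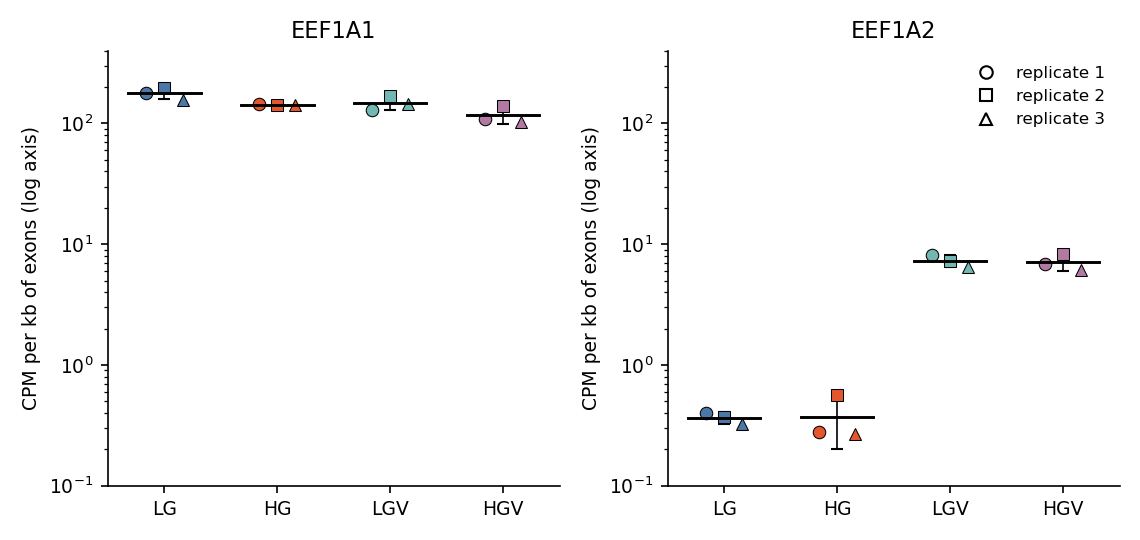
Levels of EEF1A1 and EEF1A2 in each library, as CPM per kb of exons on a log axis, by group. Points are libraries, horizontal lines the means and error bars the SD (n = 3). EEF1A2 sits between 0.267 and 0.564 without VPA and between 6.12 and 8.35 with it, and EEF1A1 stays between 103.5 and 197 in every library.

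EEF1A1, the main isoform, had lower means with VPA than without it, and a far smaller range. Its level was 1810.2, 1983 and 1582 CPM in LG and 1466, 1432 and 1431 CPM in HG. With VPA it was 1302, 1689.7 and 1466 CPM in LGV and 1102, 1398 and 1042 CPM in HGV. All HG libraries lay below all LG libraries and all HGV libraries below all HG libraries, whereas LGV overlapped LG and HGV overlapped LGV. With library size alone as the scale, HGV replicate 2 lay above all HG libraries. The separation of HGV from HG thus rested on the scaling. The log2 fold change was -0.29 (SE 0.12) for HG against LG, -0.29 (SE 0.13) for HGV against HG, -0.26 (SE 0.14) for LGV against LG and -0.35 (SE 0.15) for HGV against LGV, and -0.02 (SE 0.19) for the interaction. Comparisons that share a group of libraries are not independent of each other.

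The balance is given as the EEF1A2 share of EEF1A, that is EEF1A2 as a percentage of EEF1A1 plus EEF1A2 after dividing each by its exon length (4826 and 10063 bases). In LG the share was 0.224%, 0.189% and 0.205%, and in HG 0.189%, 0.395% and 0.187%. In LGV it was 5.94%, 4.13% and 4.23%, and in HGV 5.94%, 5.67% and 5.59%. EEF1A1 thus remained the major isoform in all 12 libraries. The means were 0.206% ± 0.0175 in LG, 0.257% ± 0.119 in HG, 4.77% ± 1.01 in LGV and 5.73% ± 0.183 in HGV (SD, n = 3).

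HGV replicates 2 and 3 lay above LGV replicates 2 and 3 but below LGV replicate 1, so the ranges of the share in LGV and HGV overlapped. Without LGV replicate 1 the mean share in LGV was 4.18%, and without HG replicate 2 that in HG was 0.188%. As plain reads, 931 to 1104 EEF1A1 reads were counted per EEF1A2 read in LG and 526 to 1111 in HG, against 33.0 to 48.4 in LGV and 33.0 to 35.2 in HGV. The share depends on the length each gene is given. With only the windows of the main transcripts that match nowhere else, it was 0.104% in LG, 0.131% in HG, 2.48% in LGV and 2.99% in HGV, and the groups kept this order.

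**Figure D2:**
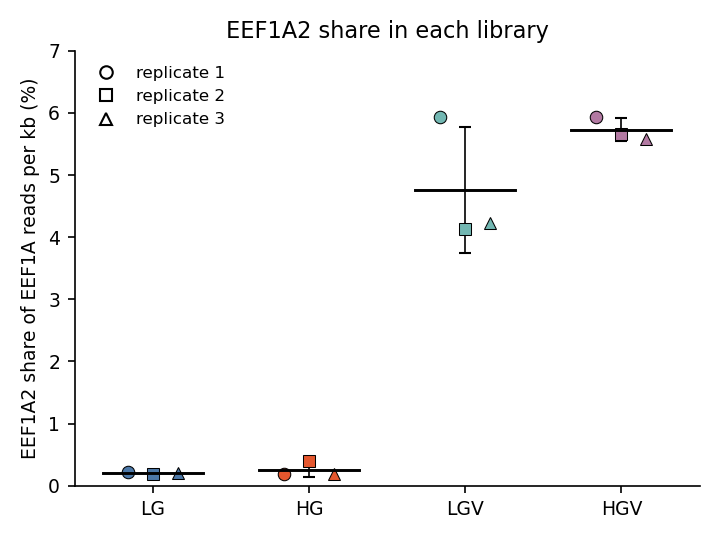
EEF1A2 share of EEF1A reads per kb of exons (%), in each library by group. Points are libraries, lines the means and bars the SD (n = 3). The untreated libraries lie between 0.187% and 0.395% and those with VPA between 4.13% and 5.94%, with LGV replicate 1 level with HGV replicate 1.

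The summed level of both isoforms followed EEF1A1. It was 178 ± 20.0 CPM per kb in LG, 144 ± 1.93 in HG, 155 ± 19.0 in LGV and 124 ± 20.1 in HGV (SD, n = 3). EEF1A2 contributed 7.28 ± 0.868 CPM per kb of this in LGV and 7.13 ± 1.13 in HGV. Its gain with VPA was smaller than the distance between the EEF1A1 means with and without VPA in the same medium, which were 178 CPM per kb in LG, 143 in HG, 148 in LGV and 117 in HGV.

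By level per kb of exons, the order in LG was EEF2 (1808 ± 401), EEF1B2 (275 ± 33.5), EEF1A1 (178 ± 20.0), EEF1D (39.4 ± 4.50), EEF1E1 (10.4 ± 1.88), EEF2K (5.53 ± 1.81) and EEF1A2 (0.366 ± 0.0405). The LG ranges of neighbours in this order did not overlap. In HG the order was the same, with EEF1E1 (9.69 ± 0.651) and EEF2K (8.58 ± 0.511) overlapping. In LGV EEF1A2 (7.28 ± 0.868) had moved above EEF2K (3.69 ± 1.13), with no overlap. In HGV the last places were held by EEF1E1 (9.40 ± 2.46), EEF2K (8.49 ± 0.551) and EEF1A2 (7.13 ± 1.13), whose ranges overlapped. Counted per 1000 windows that match nowhere else, EEF2 (2338 ± 519 CPM) and EEF1B2 (2235 ± 272 CPM) overlapped in LG, with EEF1A1 at 982 ± 110, so the place of EEF1B2 rests on the length used. On this scale EEF1E1 (20.6 ± 1.39) lay wholly above EEF2K (9.77 ± 0.582) in HG. In HGV EEF1A2 (20.0 ± 3.15) and EEF1E1 (20.0 ± 5.23) lay wholly above EEF2K (9.66 ± 0.627). The last places in HG and HGV thus also rest on the length used.

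EEF2K, the kinase that inhibits eEF2, was higher in 20 mM glucose with and without VPA, and passed the test in both glucose comparisons. In LG it was at 43.9, 30.1 and 59.1 CPM, and in HG at 66.1, 73.6 and 67.0 CPM. With VPA it was at 39.5, 21.6 and 27.8 CPM in LGV and at 72.6, 68.2 and 63.7 CPM in HGV. Every library in 20 mM glucose lay above every library in 5.5 mM glucose, and LG had the widest spread, with replicate 2 lowest and replicate 3 highest. The means were 44.4 ± 14.5 CPM in LG, 68.9 ± 4.11 in HG, 29.6 ± 9.09 in LGV and 68.2 ± 4.42 in HGV (SD, n = 3).

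EEF2K rose 1.58-fold in HG against LG (log2 fold change 0.66, SE 0.18, FDR 0.0113 by edgeR's quasi-likelihood test) and 2.27-fold in HGV against LGV (1.18, SE 0.17, FDR 3.48e-05). An FDR of 0.05 or less was reached by 24.7% of all genes tested in HG against LG and by 40.7% in HGV against LGV. The call for HG against LG rested on LG replicate 1, without which the FDR was 0.0606, whereas the call for HGV against LGV held without each library in turn (highest FDR 0.000505). The rise in HGV against LGV placed EEF2K at rank 838 of 16208 genes from the highest.

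VPA left EEF2K at a log2 fold change of -0.02 (SE 0.10, FDR 0.910) in HGV against HG and -0.57 (SE 0.23, FDR 0.0603) in LGV against LG, where the groups overlapped. The latter did not pass the test, but did with the likelihood ratio test (FDR 0.0387), with DESeq2 (0.0315) and without LG replicate 2 or LGV replicate 1. The interaction for EEF2K was 0.57 (SE 0.28, unadjusted p = 0.0556, FDR 0.455), so a difference between its VPA responses in the 2 media was not shown. A long non-coding gene on the opposite strand, RP11-141O15.1, shares 714 exon bases (8.9%) with EEF2K and rose in HG against LG (0.92, SE 0.32, FDR 0.0451). It held 15 to 77 reads a library against 665 to 2867 for EEF2K, and the strand setting of the counting was not stated.

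**Figure D3:**
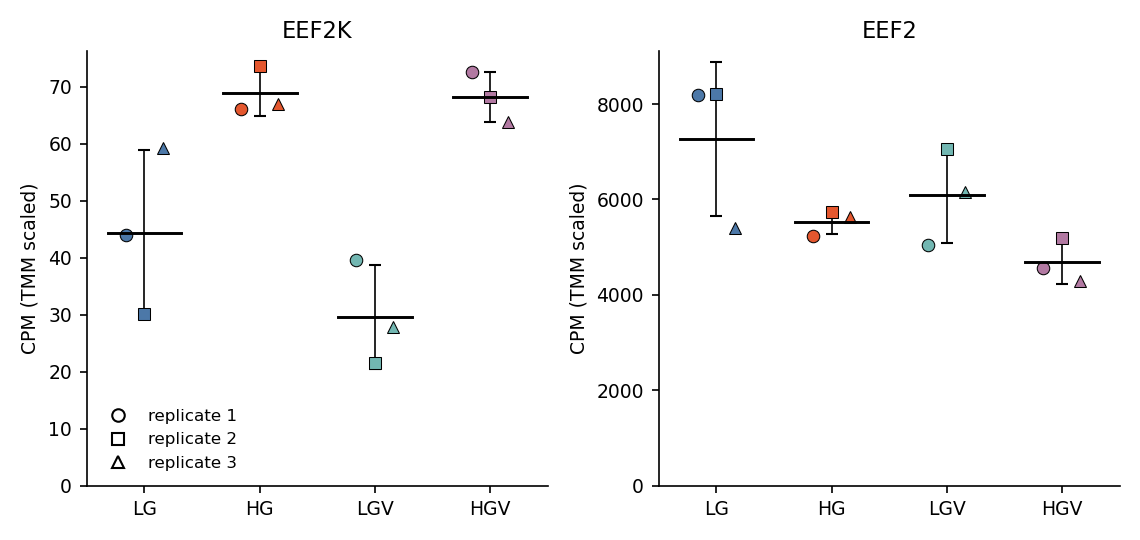
EEF2K and its substrate EEF2 in each library, in TMM-scaled CPM from 0, by group. Points are libraries, lines the means and bars the SD (n = 3). EEF2K lies at 63.7 to 73.6 CPM in the 20 mM groups and at 21.6 to 59.1 in the 5.5 mM groups, and LG replicate 3 has the highest EEF2K and the lowest EEF2 of its group.

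The 250 bases before the start of EEF2K in the RefSeq promoter table are shown because EEF2K was called in both glucose comparisons (GRCh38.p14, chr16:22206028-22206277, plus strand, last base next to the start). The capitals mark its single CACGTG, 59 bases before the start:
EEF2K: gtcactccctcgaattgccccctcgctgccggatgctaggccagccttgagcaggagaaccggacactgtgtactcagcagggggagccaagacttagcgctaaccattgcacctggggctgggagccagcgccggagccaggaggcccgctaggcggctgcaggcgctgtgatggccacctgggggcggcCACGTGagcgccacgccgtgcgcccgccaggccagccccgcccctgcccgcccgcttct
CACGTG, which reads the same on both strands and is bound by many basic helix-loop-helix factors, occurred in 7.26% of the 35116 promoters of the table and in no other promoter of the family there. Also searched on both strands were GGGCGG, with 3 matches in the EEF2K promoter and present in 44.95% of promoters, and TATAAA, with 0 matches and present in 11.53%. The words were chosen after the values were known, and a match describes the sequence only. EEF1A2 and EEF1D have no entry in the table used.

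EEF2, which moves the ribosome and is the substrate of EEF2K, was the most abundant member, with 0.469% to 0.735% of all counts. It was at 8193, 8211 and 5406 CPM in LG, 5235, 5727 and 5632 in HG, 5044, 7058 and 6163 in LGV and 4564, 5193 and 4288 in HGV. LG replicate 3 was apart from the other LG libraries and within the HG range, while all HGV libraries lay below all HG libraries. With library size alone as the scale, HGV replicate 2 lay within the HG range. No comparison of EEF2 passed the test, with log2 fold changes of -0.37 (SE 0.15, FDR 0.0735) for HG against LG, -0.24 (SE 0.12, FDR 0.124) for HGV against HG, -0.24 (SE 0.18, FDR 0.314) for LGV against LG and -0.40 (SE 0.17, FDR 0.0656) for HGV against LGV. Per 1000 EEF2 reads there were 5.36, 3.66 and 10.9 EEF2K reads in LG, 12.6, 12.9 and 11.9 in HG, 7.83, 3.06 and 4.50 in LGV and 15.9, 13.1 and 14.9 in HGV. This ratio did not overlap between the glucose media, with or without VPA.

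EEF1B2 and EEF1D, the guanine nucleotide exchange subunits, had lower means in the other 3 groups than in LG. EEF1B2 was at 542, 583 and 457 CPM in LG, 394, 398 and 461 in HG, 389, 498 and 392 in LGV and 275, 399 and 307 in HGV. It fell in HGV against LGV (log2 fold change -0.40, SE 0.15, FDR 0.0428), although HGV replicate 2 lay within the LGV range. That call was lost without any 1 of LGV replicates 2 and 3 and HGV replicates 1 and 3 (FDR up to 0.209). The other EEF1B2 differences did not pass, at -0.31 (SE 0.13, FDR 0.0764) for HG against LG, -0.35 (SE 0.14, FDR 0.0524) for HGV against HG and -0.30 (SE 0.14, FDR 0.104) for LGV against LG.

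EEF1D lies at chr8:144661867-144681711 (minus strand, GRCh37). It was at 394, 396 and 322 CPM in LG, 276, 292 and 304 in HG, 275, 334 and 337 in LGV and 243, 276 and 257 in HGV. HG lay wholly below LG, and HGV wholly below HG by a margin under 1 CPM. With library size alone as the scale, HGV replicate 2 lay within the HG range. Its log2 fold changes were -0.33 (SE 0.12, FDR 0.0588) for HG against LG, -0.17 (SE 0.10, FDR 0.181) for HGV against HG, -0.22 (SE 0.13, FDR 0.198) for LGV against LG and -0.30 (SE 0.13, FDR 0.0644) for HGV against LGV, none of which passed the test. On the other strand EEF1D shares 2934 exon bases (31.2%) with ENSG00000279605, a transcript still to be experimentally supported, 297 (3.2%) with the long non-coding ENSG00000254741, and 261 (2.8%) with TIGD5, which held 52 to 252 reads a library. The first pair had no row among the genes analysed.

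EEF1E1, the scaffold-associated relative of these subunits, varied within groups as much as between them. It was at 18.1, 25.9 and 21.0 CPM in LG, 21.6, 18.8 and 20.3 in HG, 22.2, 25.2 and 23.4 in LGV and 15.2, 25.3 and 18.4 in HGV. All 4 comparisons overlapped and none passed (FDR from 0.165 to 0.858), and the sign of its difference in HG against LG and in HGV against HG changed with the scaling. A read-through gene, EEF1E1-BLOC1S5, shares 393 of its exon bases (18.8%) on the same strand, so reads there may have been counted differently.

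**Figure D4:**
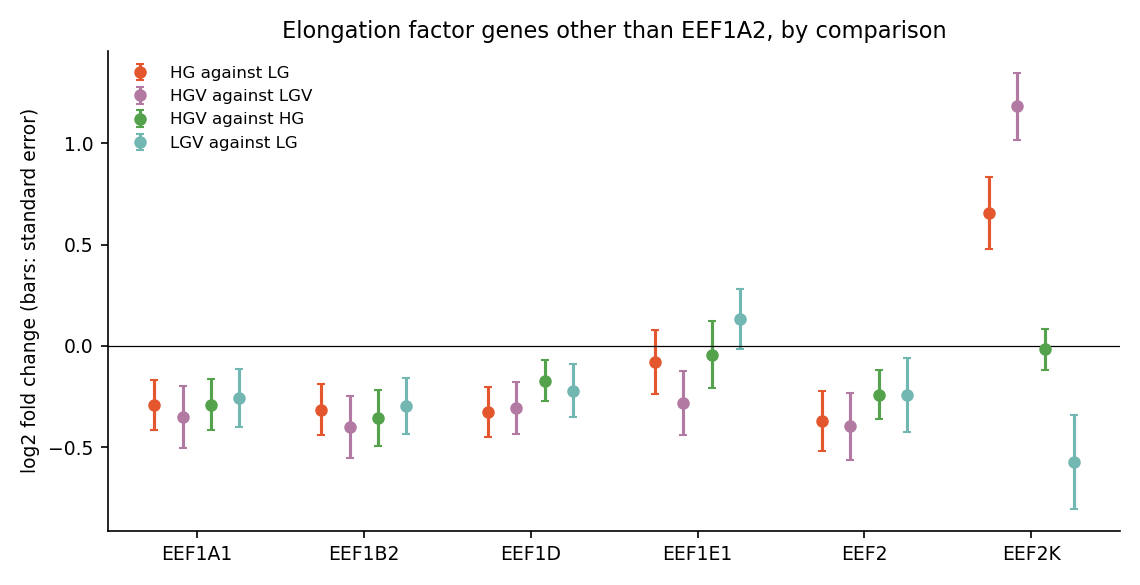
Log2 fold changes of EEF1A1, EEF1B2, EEF1D, EEF1E1, EEF2 and EEF2K in the 4 comparisons, with bars for the standard error (n = 3 against 3 libraries). EEF1A2, at 4.27 and 4.33 with VPA, is off this scale and left out. EEF2K lies at 0.66 and 1.18 in the glucose comparisons, and EEF1A1, EEF1B2, EEF1D and EEF2 lie between -0.40 and -0.17 in every comparison.

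Counted over the 5 tested genes, 1 was called in HG against LG (EEF2K, higher) and 2 in HGV against LGV (EEF2K higher, EEF1B2 lower). Of all genes tested, 24.7% and 40.7% were called in these glucose comparisons, so the counts lie near those of the whole table. With VPA 0 of 5 were called in HGV against HG, in which 46.1% of all genes tested were called, and 0 of 5 in LGV against LG, in which 41.6% were. In those 2 comparisons 8588 of 16188 and 7842 of 15944 genes had an unadjusted p under 0.05, against 1 of the 5 (EEF1B2) and 1 of the 5 (EEF2K). DESeq2 called EEF1B2 and EEF2 in HGV against HG, and EEF2K in LGV against LG. For the interaction 0 of 5 were called, with 0.0427% of all genes (7 of 16389) called and 1852 at an unadjusted p under 0.05, 0 of the 5 at that p, and 0 called by DESeq2.

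Of the 7 genes, the groups did not overlap for EEF2K (higher), EEF1A1 and EEF1D (lower) in HG against LG, where 41.2% of all genes did not overlap. In HGV against HG they were EEF1A2 (higher), EEF1A1, EEF1D and EEF2 (lower), against 54.6% of all genes. With library size alone as the scale, EEF1A1, EEF1D and EEF2 overlapped between HGV and HG. In LGV against LG only EEF1A2 did not overlap, against 50.5%, and in HGV against LGV only EEF2K, against 51.4%. These counts lie near or below those of the whole table.

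LG replicate 3 stood apart from the other LG libraries in several members at once. It had the lowest EEF1A1, EEF1A2, EEF1B2, EEF1D and EEF2 and the highest EEF2K of the group. Without it, 4 of the 5 tested genes were called in HG against LG (EEF1B2, EEF1D and EEF2 lower, EEF2K higher), and without LG replicate 1 none was, with 5338 and 1933 genes called in the whole table. In LGV against LG, EEF1B2 and EEF2 were called as lower without LG replicate 3. The part of this library in the results beyond these values was not tested.

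The proportions between EEF1A1, EEF1B2, EEF1D and EEF2 varied among the libraries, but far less than that of EEF1A2 to EEF1A1. Per 1000 EEF1A1 reads, EEF1B2 had 249.6 to 322 reads and EEF1D 188 to 246, over all 12 libraries. EEF2 had 3.42 to 4.53 reads for each EEF1A1 read, with both ends of that range in LG. By comparison, EEF1A2 reads per 1000 EEF1A1 reads ran from 0.900 to 30.3. Together the 7 genes took 0.657% to 0.988% of the counts of a library.

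**Figure D5:**
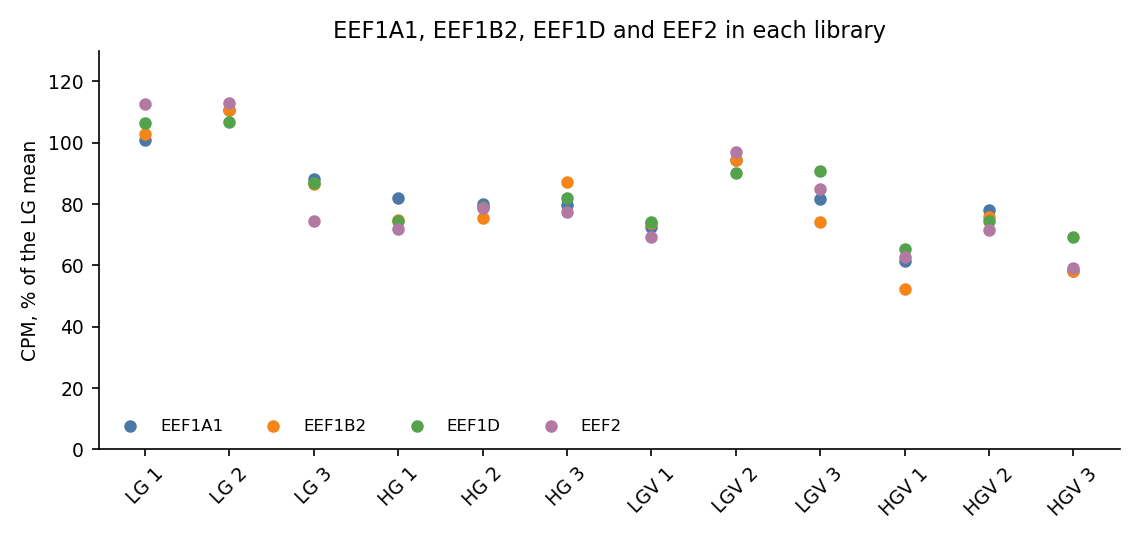
EEF1A1, EEF1B2, EEF1D and EEF2 in each library, in TMM-scaled CPM as a percentage of that gene's LG mean. Each point is a library. The 4 genes lie close together within most libraries, with LG replicate 3 below LG replicates 1 and 2, and their lowest values are in HGV.

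The first 20 bases of the transcripts are shown for these genes and for EEF2K, because mRNAs of the translation machinery are known for a 5′ terminal run of pyrimidines that begins with C and makes their translation responsive to mTOR. Capitals mark the run of C and T from the first base (RefSeq, GRCh38.p14):
EEF1A1 (chr6:73521013-73521032, minus): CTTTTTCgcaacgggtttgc
EEF1B2, downstream start (chr2:206159895-206159914, plus): CCTTTTTCCTCTCTTCagcg
EEF1B2, upstream start (chr2:206159609-206159628, plus): agcctcgaggccgggcgtct
EEF2 (chr19:3985444-3985463, minus): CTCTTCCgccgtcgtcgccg
EEF2K (chr16:22206278-22206297, plus): gctcaacctagaccagcccc
The run was 7 bases in EEF1A1, 16 at the downstream start of EEF1B2 and 7 in EEF2, and 0 in EEF2K, EEF1E1 and at the upstream start of EEF1B2. A run of at least 5 was found at 1816 of 35116 starts (5.17%). The table covered 5 of the 7 genes, and which start HepG2 cells used was not measured.

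Cytosolic ribosomal proteins, whose mRNAs carry the same kind of start, were examined as the nearest functional group. Of 78 genes, 1 was called as lower in HG against LG, 2 in HGV against HG, 2 in LGV against LG and 6 in HGV against LGV, and 0 as higher. In the same order, 1959 of 15452, 3272 of 16188, 3177 of 15944 and 3160 of 16208 of all genes tested were called as lower. Of the 78, 72, 74, 70 and 76 had a log2 fold change below 0, and 61, 57, 30 and 69 with library size as the scale. The median log2 fold changes of the 78 were -0.17, -0.16, -0.13 and -0.23, against medians of all genes of 0.01, 0.02, -0.01 and 0.01. With library size alone as the scale, which moved the median of all genes to 0.15 in HGV against HG and 0.16 in LGV against LG, the ribosomal median was -0.04 in HGV against HG and turned to 0.03 in LGV against LG. The genes whose log2 CPM was most like that of EEF1A1 over the 12 libraries were RPL10 (Pearson r = 0.974), YBX1 (0.970), RTCB (0.967), UNC50 (0.966) and RPL6 (0.962), among 12480 genes, as a description. RPL10 and RPL6, both proteins of the large ribosomal subunit, were the ribosomal genes called in HGV against HG (-0.35, SE 0.11, FDR 0.0220, and -0.31, SE 0.11, FDR 0.0330). These calls and the correlations come from the same libraries and are not independent of each other. With upper quartile factors or library size, 0 of the 78 were called in HGV against HG, and DESeq2's Wald test called 6, all lower.

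Processed copies of EEF1A1 and EEF1B2 had their own rows, 17 named EEF1A1P and 2 named EEF1B2P. The EEF1A1P rows together held 33.1 to 45.3 reads per 1000 EEF1A1 reads, and the EEF1B2P rows 9.40 to 13.9 per 1000 EEF1B2 reads. Over the 5 comparisons 0 of 93 tests of these rows were called by edgeR's quasi-likelihood test, 4 had an unadjusted p under 0.05, and DESeq2 called 1, in HG against LG. Their reads cannot be told from those of the parent genes where the sequences are identical. In HG against LG all 17 EEF1A1P rows had a log2 fold change below 0 (median -0.34), and in HGV against HG 11 of the 16 tested did (median -0.13). Adding their reads to EEF1A1 gave an EEF1A2 share of 0.198% in LG, 0.248% in HG, 4.59% in LGV and 5.51% in HGV.

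EEF1A2 lies near the end of the long arm of chromosome 20. The 3 nearest measured coding genes on the lower side were ARFGAP1 (198223 bases away), NKAIN4 (215319) and BIRC7 (247518), and those on the higher side PPDPF (21525), C20orf195 (48651) and HELZ2 (58846). All 6 were called as higher in HGV against HG and 5 of the 6 in LGV against LG, against 4184 of 16188 and 3461 of 15944 genes called as higher in the whole table. NKAIN4 and C20orf195 averaged under 10 reads in LG and in HG, so only their VPA libraries carried them past the filter. A call for them could therefore only be higher, which limits the comparison with the whole table. The other neighbours, BIRC7, HELZ2, ARFGAP1 and PPDPF, were all called as higher in HGV against HG, and all but PPDPF in LGV against LG. BIRC7, an inhibitor of apoptosis, rose by a log2 fold change of 2.63 (SE 0.19, FDR 4.18e-07) and 1.72 (SE 0.23, FDR 3.29e-05). HELZ2, a nuclear helicase co-activator, rose by 1.32 (SE 0.11, FDR 1.59e-06) and 0.93 (SE 0.13, FDR 4.71e-05), and ARFGAP1, which acts in vesicle transport, by 0.60 (SE 0.10, FDR 0.000477) and 0.38 (SE 0.13, FDR 0.0282).

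PPDPF rose in HGV against HG (0.55, SE 0.12, FDR 0.00322) and was at 0.11 (SE 0.21, FDR 0.725) in LGV against LG. NKAIN4 had 9, 16 and 4 reads in LG and 75, 72 and 70 in LGV, and 5, 1 and 2 in HG and 15, 24 and 29 in HGV. C20orf195 had 1 read in each LG library and 17, 22 and 21 in LGV, and 1, 2 and 0 reads in HG and 37, 29 and 37 in HGV. Between glucose media, 2 of the 4 tested were called in HG against LG, BIRC7 lower (-1.02, SE 0.25, FDR 0.00569) and PPDPF higher (0.69, SE 0.19, FDR 0.0148). In HGV against LGV 3 of the 6 were called. PPDPF (1.10, SE 0.15, FDR 1.99e-05) and HELZ2 (0.63, SE 0.12, FDR 0.000344) were higher and NKAIN4 (-1.79, SE 0.30, FDR 0.00015) lower. Of all genes tested, 24.7% and 40.7% were called there. For the interaction 0 of the 6 were called by edgeR's quasi-likelihood test, and 2 (BIRC7 and HELZ2) had an unadjusted p under 0.05. DESeq2 called 0 of the 6, with no adjusted p for 1.

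The genes most like EEF1A2 over the 12 libraries, by Pearson correlation of log2 CPM among 12480 genes, were SP6 (0.996), TMCC2 (0.995), FYN (0.994), CACNB1 (0.994) and SHISA4 (0.993). Since EEF1A2 splits the libraries into those with and without VPA, these values describe that split and were given no test. SP6 is a transcription factor, FYN a tyrosine kinase and CACNB1 a calcium channel subunit known from skeletal muscle.

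Because EEF1A2 is known from neurons and muscle, markers of those cells were read beside it. Of 8 neuron markers 3 had a row (RBFOX3, SYP and TUBB3), and their summed CPM was 8.38 to 10.0 in LG, 9.45 to 11.1 in HG, 25.5 to 28.7 in LGV and 37.8 to 50.02 in HGV. SYP, a synaptic vesicle protein, rose in HGV against HG (2.45, SE 0.15, FDR 1.30e-07) and LGV against LG (1.97, SE 0.16, FDR 3.80e-07), whereas TUBB3 was at 0.16 (FDR 0.536) and -0.27 (FDR 0.391). RBFOX3 was at 1.11 (SE 0.50, FDR 0.0917) in LGV against LG and was not tested in HGV against HG. In HGV against LGV RBFOX3 fell (-1.22, SE 0.45, FDR 0.0351), SYP rose (0.69, SE 0.14, FDR 0.000808) and TUBB3 was at 0.52 (SE 0.23, FDR 0.0784). SNAP25, MAP2, ELAVL4, STMN2 and NEFL had no row. Of 9 muscle markers 4 had a row (ACTA1, CKM, TNNT2 and TTN), with summed CPM of 16.5 to 20.5 in LG, 11.8 to 15.1 in HG, 21.9 to 25.1 in LGV and 15.9 to 19.3 in HGV, and DES, MYOG, MYH1, MYH2 and MYH7 had none. TNNT2 (0.97, SE 0.29, FDR 0.0139) and TTN (0.77, SE 0.27, FDR 0.0308) rose in LGV against LG and CKM in HGV against HG (0.69, SE 0.24, FDR 0.0317), and ACTA1 passed in neither. In HG against LG TNNT2 (-2.14, SE 0.32, FDR 0.000132) and ACTA1 (-1.28, SE 0.19, FDR 0.00014) fell. Both also fell in HGV against LGV (-2.86, SE 0.25, FDR 3.45e-07, and -0.81, SE 0.22, FDR 0.00593). CKM and TTN had positive log2 fold changes in both glucose comparisons and passed in neither. COL1A1, the collagen gene that was the single fibroblast marker of 4 with a row, was at 0.125 to 0.419 CPM without VPA and 0.747 to 2.64 CPM with it, and rose in HGV against HG (2.52, SE 0.35, FDR 8.96e-05) and LGV against LG (2.36, SE 0.44, FDR 0.000553). Of 4 endothelial markers 2 had a row (CDH5 and VWF), with summed CPM of 2.298 to 2.99 in LG, 2.21 to 3.71 in HG, 2.24 to 3.09 in LGV and 3.83 to 4.85 in HGV. CDH5 rose in HGV against HG (1.65, SE 0.33, FDR 0.00133), whereas VWF was at 0.18 (SE 0.24, FDR 0.576). In LGV against LG VWF was at -0.12 (SE 0.24, FDR 0.716). CDH5 passed the filter only in comparisons with HGV, and COL1A1 only in those with a VPA group. RBFOX3 likewise passed it only in comparisons of groups with LGV. Its LGV libraries carried it past the filter there, which favoured values higher in LGV and limits its fall in HGV against LGV. The part of other cell types in the EEF1A2 values was not tested.

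Other genes of the pathway were counted by group, from lists made with earlier results of these data known. In the multisynthetase complex, the partners of EEF1E1, with the valyl-tRNA synthetase VARS that binds the EEF1B complex, 8 of 11 genes were called as lower in HGV against HG and 7 of 11 in LGV against LG, and 0 as higher. Over all genes tested, 3272 of 16188 and 3177 of 15944 were called as lower. The medians were -0.51 and -0.44, against 0.02 and -0.01 over all genes, and stayed at -0.39 and -0.27 with library size as the scale. DARS, the aspartyl-tRNA synthetase, and VARS fell in HGV against HG by 0.73 (SE 0.11, FDR 0.000151) and 0.71 (SE 0.11, FDR 0.000224) on the log2 scale. AIMP2, a scaffold of the complex, and VARS fell in LGV against LG by 1.05 (SE 0.17, FDR 0.000147) and 0.88 (SE 0.12, FDR 3.79e-05). Between glucose media 1 of 11 was called in HG against LG (LARS, higher) and 1 in HGV against LGV (AIMP2, higher). Of all genes tested, 24.7% and 40.7% were called there.

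Enzymes that modify the elongation factors were called in both directions. Of 6 rows listed for lysine methyltransferases of eEF1A and eEF2, 2 were lower in HGV against HG (METTL13, -0.41, SE 0.13, FDR 0.0178, and METTL21B, -0.40, SE 0.15, FDR 0.0435) and 4 in LGV against LG, with FAM86A at -1.05 (SE 0.22, FDR 0.00141) and N6AMT2 at -1.03 (SE 0.34, FDR 0.0259). The 4 include ECE2 (-0.38, SE 0.14, FDR 0.0463), a row named for a different enzyme, so its reads cannot be credited to a methyltransferase. The list medians were -0.27 and -0.41, against 3272 of 16188 and 3177 of 15944 genes called as lower in all, and with library size as the scale 0 and 1 of the 6 were called. Of 7 genes for diphthamide, the modified histidine of eEF2, 1 was higher and 3 lower in each VPA comparison (medians -0.29 and -0.41), where 46.1% and 41.6% of all genes were called. DPH3 rose by 0.72 (SE 0.13, FDR 0.000496) in HGV against HG and by 0.69 (SE 0.13, FDR 0.000496) in LGV against LG. DPH6 fell in HGV against HG (-0.74, SE 0.16, FDR 0.00207) and DPH2 in LGV against LG (-0.68, SE 0.12, FDR 0.000384). Between glucose media, 1 methyltransferase was higher in HG against LG, 2 were higher and 1 lower in HGV against LGV, and 1 diphthamide gene was higher and 1 lower in HG against LG and 1 lower in HGV against LGV. The share of all genes called was 24.7% in HG against LG and 40.7% in HGV against LGV.

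Among 12 genes whose products act on EEF2K, 3 were higher and 1 lower in HGV against HG, and 4 higher and 1 lower in LGV against LG (medians 0.17 and 0.14). These counts lie near or below the 46.1% and 41.6% of all genes called. RPS6KA1, a kinase that phosphorylates and inhibits EEF2K, rose by 0.96 (SE 0.11, FDR 2.32e-05) in HGV against HG and 0.93 (SE 0.17, FDR 0.000582) in LGV against LG. Between glucose media, 1 of the 12 was called in HG against LG (MAPK3, higher), and 2 were higher and 2 lower in HGV against LGV. Of all genes tested, 24.7% and 40.7% were called in these comparisons.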

How the data were processed

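HepG2 RNA from 12 samples was read as 50-base single-end reads. Per the labels and the study's methods, the authors made the libraries with a directional kit, used bcl2fastq 2.17.1.14, aligned with STAR to GRCh37 and counted reads per Ensembl gene with featureCounts at a mapping quality of at least 10. They deposited raw counts per gene without normalization, leaving out genes that averaged under 10 reads. The strand setting was not given in the sources used here. No replicate pair agreed within sampling noise.

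From these counts, genes with a mean of at least 10 over the libraries compared were tested with edgeR 4.0.16 (R 4.3.3; TMM factors from 0.879 to 1.09, quasi-likelihood F test, called at an FDR of 0.05 or less by the Benjamini-Hochberg method over the whole table). EEF1A1 and EEF1A2 were given no p. Other tools were Python 3.11.15, pandas 2.3.3 and matplotlib 3.10.9. Exon lengths and positions came from GENCODE annotation on GRCh37, which matched 97.47% of identifiers, and transcript starts from RefSeq (GRCh38.p14).

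The genes, lists and markers were chosen with earlier results of these data known. Named were every member, its pseudogenes and overlapping genes, the 3 nearest genes on each side of EEF1A2, the 5 genes most like each EEF1A gene averaging 1 log2 CPM or more (pseudocount 0.5), and the 2 called genes with the largest change of each list in each VPA comparison. A gene that meets this rule is not reported here. Alternatives were DESeq2 1.42.0 and its size factors, other scalings, filters and tests, the replicate number as a block, leaving out each library, and other lengths for the share.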

Additional observations from a re-analysis of the deposited data

How the results depend on the processing

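The direction and call of the members' differences (for EEF1A1 and EEF1A2, the value within 1 SE) were the same in 234 of 260 combinations of member, comparison and setting other than leaving out a library, and in 151 of 180 that left one out. The sign of EEF1E1 turned with upper quartile factors and library size in HG against LG (0.013 and 0.022) and in HGV against HG (0.019 and 0.074), and that of EEF2K in HGV against HG (0.042 and 0.10). With an FDR of 0.01, 1852 genes and 0 members were called in HG against LG, 4263 and 1 in HGV against LGV, and 1 gene for the interaction. Of the 5 members, the likelihood ratio test called 2 in HG against LG and 4 in HGV against LGV, 1 in each VPA comparison, and 202 genes for the interaction. DESeq2's Wald test called 2 members in HGV against HG, 1 in LGV against LG and 4 in HGV against LGV, and 162 genes for the interaction. A filter of 1 CPM called 2 members in HG against LG, DESeq2's size factors 1 in HGV against HG, a single fit of the 12 libraries 1 in LGV against LG, and upper quartile factors and library size 1 each in HGV against LGV. With library size 1 gene was called for the interaction, and the split of higher to lower calls went from 1854 and 1959 to 2172 and 1297 in HG against LG, from 4184 and 3272 to 5182 and 2424 in HGV against HG, from 3461 and 3177 to 4500 and 1956 in LGV against LG, and from 3444 and 3160 to 3761 and 2309 in HGV against LGV. Library size alone put the median of all genes at 0.11, 0.15, 0.16 and 0.10 in these comparisons. The cause was not tested.

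Replicate numbers are shared across groups, but libraries of the same number did not deviate together throughout (correlations from -0.26 to 0.005 in HG against LG and from -0.26 to 0.43 in LGV against LG). With replicate number as a block, 1 member was called in HGV against HG (EEF1B2), 1 in LGV against LG (EEF2K) and 4 in HGV against LGV (EEF1B2, EEF1D, EEF2 and EEF2K), and 13 genes for the interaction. The block called 3351, 8229, 6971 and 7308 genes in the 4 comparisons.

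Leaving out each library in turn gave 1933 to 5338 genes and 0 to 4 members in HG against LG, 6083 to 7793 and 0 to 2 in HGV against HG, 4942 to 6986 and 0 to 2 in LGV against LG, and 4516 to 7228 and 1 to 5 in HGV against LGV. For the interaction it gave 1 to 217 genes and 0 members. The log2 fold change then ranged from -0.17 to 0.094 for EEF1E1 in HG against LG, from -0.26 to 0.11 for EEF1E1 in HGV against HG and from -0.069 to 0.033 for EEF2K in HGV against HG. The EEF1A2 share ranged from 0.197% to 0.214% in LG, 0.188% to 0.292% in HG, 4.18% to 5.08% in LGV and 5.63% to 5.80% in HGV.

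As plain counts, the EEF1A2 share was 0.0987%, 0.123%, 2.35% and 2.83% in LG, HG, LGV and HGV. With exon windows of a single genome match it was 0.174% in LG and 4.88% in HGV, with the longest coding transcript 0.285% in LG, 6.49% in LGV and 7.78% in HGV, and with pseudogene reads added 5.51% in HGV. Windows of the main transcript with no other match, a choice made after seeing the data, gave 0.104%, 0.131%, 2.48% and 2.99%. With 42 to 91 reads in the untreated libraries, EEF1A2 counts limit the precision of the share there, and counting error is only part of that spread.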

Other observations

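Beyond the 7 genes, the other factors of cytosolic elongation, release and recycling were called in both directions with VPA. Of 10 with a row, 3 were higher and 1 lower in HGV against HG and 2 higher and 2 lower in LGV against LG, with medians of 0.16 and 0.03. Over all genes 46.1% and 41.6% were called. EIF5A2, the less widely expressed form of the hypusine-containing factor eIF5A, rose by 1.19 (SE 0.15, FDR 3.72e-05) in HGV against HG and 1.09 (SE 0.19, FDR 0.000377) in LGV against LG. EIF5A, the common form, fell in LGV against LG (-0.69, SE 0.12, FDR 0.000406), and the recycling factor ABCE1 fell in HGV against HG (-0.66, SE 0.11, FDR 0.000278). Between glucose media 3 of the 10 were lower in HG against LG (GSPT1, ETF1 and EIF5A), and 1 was higher and 4 lower in HGV against LGV. The share of all genes called there was 24.7% and 40.7%.

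Mitochondrial elongation and release factors, which serve a separate ribosome, were 2 higher and 3 lower of 10 in each VPA comparison, near the 46.1% and 41.6% called over all genes. The 5 genes called were MTRF1L, C12orf65, MRRF, GFM2 and ICT1 in both. GFM2 rose in HGV against HG (0.66, SE 0.12, FDR 0.000599). ICT1 fell in HGV against HG (-0.65, SE 0.15, FDR 0.00333) and LGV against LG (-0.91, SE 0.15, FDR 0.000201), and C12orf65 in LGV against LG (-0.76, SE 0.15, FDR 0.00100). In each glucose comparison 1 of the 10, MTRF1L, was called as lower, where 24.7% (HG against LG) and 40.7% (HGV against LGV) of all genes were called. Of the ribosomal proteins, RPL9 and RPL21 were those called in LGV against LG (-0.49, SE 0.12, FDR 0.00585, and -0.43, SE 0.16, FDR 0.0477). MTO1, which shares 119 exon bases with EEF1A1 on the other strand, fell in HGV against HG (-0.54, SE 0.11, FDR 0.00117) and was at -0.27 (SE 0.12, FDR 0.0847) in LGV against LG.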
